A study of Mus musculus with 4 samples.

Results

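The genes described here encode the signalling machinery of the T cell receptor: its CD3 chains, the kinases and adaptors that act on them, the phosphatases and ubiquitin ligases that restrain them, costimulatory receptors, and the calcium and NFAT arm. A list of 42 genes was set by symbol, and 41 of them had a probe set assigned to that gene alone, out of 19938 genes measured this way. Lck was not analysed here. Where a gene had several probe sets, the one with the highest mean over the arrays was used, which concerned Dgkz, with 2, among the 41 genes.

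The cells were CD4+ CD8- thymocytes of 8-week-old C57BL/6n mice, either wild type (WT, miR-142+/+) or lacking the microRNA gene Mir142 (miR-142-/-), with no Cre line or restriction to a cell type named in the labels. CD8+ cells were depleted with beads, and flow sorting then gave a CD69+ Qa2- and a CD69- Qa2+ population from each genotype. CD69 marks cells that have recently been signalled through their receptor, and Qa2 is a surface protein gained as single-positive thymocytes mature, so Qa2- is the earlier and Qa2+ the later stage. RNA came from 1 pool of mice per genotype, 5 mice (3 female and 2 male) for WT and 4 mice (1 female and 3 male) for miR-142-/-, with 1 Affymetrix Mouse Gene 1.0 ST array for each sorted population and 4 arrays in all. The comparisons ask how these genes differ between the genotypes at each stage, and between the stages in each genotype.

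As background, a T cell receptor that binds peptide and MHC is phosphorylated on the CD3 chains by Src family kinases, and the kinase Zap70 then docks there. Zap70 phosphorylates the scaffolds Lat and Lcp2, which gather Grb2 and Sos1, Vav1 and the phospholipase Plcg1. The products of Plcg1 open a diacylglycerol arm through Rasgrp1 and Prkcq and a calcium arm that ends with NFAT factors entering the nucleus. In the thymus, signals through this machinery decide whether a cell survives selection, and the strength of signalling is tuned again as selected cells mature.

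The microRNA that the miR-142-/- mice lack has both of its arms shown here, since its absence defines the genotype. The sequences are those of RefSeq (build GRCm38.p6, chr11:87756867-87756887 for the 5p and chr11:87756903-87756925 for the 3p arm, plus strand), written 5′ to 3′ with the seed, bases 2 to 8, in capitals. The arms have different seeds. Which of the 41 genes carry matches to these seeds was not examined.
mmu-miR-142a-5p: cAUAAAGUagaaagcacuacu
mmu-miR-142a-3p: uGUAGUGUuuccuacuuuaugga

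Promoters were found in the RefSeq table for 33 of the 42 genes, in 48 windows of 300 bases (250 before to 50 after a start site). They were searched on both strands for the letters of 5 motifs, and overlapping matches were kept. CAGGAAG, bound by ETS factors, occurred in 29.2% of these windows and in 13.3% of all 32851 windows of the table. TGTGGT, of RUNX factors, occurred in 14.6% against 16.8%. CAGCTG, an E-box, occurred in 14.6% against 16.3%. TGGAAA, of NFAT factors, occurred in 18.8% against 21.4%. AGATAA, of GATA factors, occurred in 10.4% against 11.2%. A match describes letters in the window and is not evidence of binding.

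The windows of 5 genes are shown, 5′ to 3′ in the direction of the gene, with motif matches in capitals. Cd3d and Cd3g are neighbours read in opposite directions, with start sites 1355 bases apart, and Cd3d is the chain that read lower in miR-142-/- cells while Cd3g did not. Txk and Sla2 read lower in miR-142-/- cells of both stages, and Orai1 fell with stage. Each gene's locus is given on GRCm38.p6: Cd3d chr9:44981536-44981835, plus strand; Cd3g chr9:44980382-44980681, minus strand. Txk (the second of 2 listed start sites) is at chr5:72736553-72736852, minus strand, Sla2 at chr2:156887172-156887471, minus strand and Orai1 at chr5:123014824-123015123, plus strand.
Cd3d: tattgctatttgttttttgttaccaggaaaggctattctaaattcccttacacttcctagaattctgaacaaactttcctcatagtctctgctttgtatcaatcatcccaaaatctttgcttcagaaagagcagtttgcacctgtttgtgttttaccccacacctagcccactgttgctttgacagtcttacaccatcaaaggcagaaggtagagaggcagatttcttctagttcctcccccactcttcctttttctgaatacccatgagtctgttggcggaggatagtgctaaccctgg
Cd3g: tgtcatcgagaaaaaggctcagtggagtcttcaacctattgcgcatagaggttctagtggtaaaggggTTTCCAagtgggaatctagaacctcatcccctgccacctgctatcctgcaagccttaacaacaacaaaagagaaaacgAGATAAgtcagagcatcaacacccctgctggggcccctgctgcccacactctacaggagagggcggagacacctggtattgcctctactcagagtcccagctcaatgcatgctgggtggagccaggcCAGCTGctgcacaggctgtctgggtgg
Txk: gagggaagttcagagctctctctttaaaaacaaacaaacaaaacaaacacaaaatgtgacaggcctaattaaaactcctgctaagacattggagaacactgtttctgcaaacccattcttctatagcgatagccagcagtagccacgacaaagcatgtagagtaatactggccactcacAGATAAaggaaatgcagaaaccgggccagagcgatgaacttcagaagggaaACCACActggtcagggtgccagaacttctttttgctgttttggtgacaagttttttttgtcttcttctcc
Sla2: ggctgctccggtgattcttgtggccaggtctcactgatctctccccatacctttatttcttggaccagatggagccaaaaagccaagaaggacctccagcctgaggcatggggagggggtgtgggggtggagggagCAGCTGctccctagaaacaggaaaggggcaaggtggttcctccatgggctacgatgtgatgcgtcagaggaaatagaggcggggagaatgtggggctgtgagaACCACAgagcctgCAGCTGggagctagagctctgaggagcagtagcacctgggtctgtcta
Orai1: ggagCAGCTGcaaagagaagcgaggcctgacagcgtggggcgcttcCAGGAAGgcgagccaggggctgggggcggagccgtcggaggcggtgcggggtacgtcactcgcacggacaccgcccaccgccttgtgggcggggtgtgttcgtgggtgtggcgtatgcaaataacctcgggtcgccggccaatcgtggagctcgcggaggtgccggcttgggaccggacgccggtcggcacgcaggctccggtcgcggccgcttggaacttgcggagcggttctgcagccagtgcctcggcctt
The Cd3d window held no match to the 5 motifs and the Cd3g window held 3, an NFAT, a GATA and an E-box match. The windows of Txk and Sla2 each held the RUNX letters read on the opposite strand (ACCACA), beginning at -20 and -11 from the start site. The window of the other Txk start site, not printed, held no match to the 5 motifs. The Orai1 window held an E-box and an ETS match at -246 and -204.

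Levels are log2 values, and each pair of values gives the Qa2- population first and the Qa2+ population after it. Mir142 read 10.11 and 9.41 in the WT and 5.29 and 4.88 in the miR-142-/- populations, the latter below a background threshold of log2 5.87 set from olfactory and vomeronasal receptor genes. From the Qa2- to the Qa2+ population Cd69 was 0.77 lower on the log2 scale in WT and 0.96 lower in miR-142-/-, and the Qa2-related genes H2-Q4 and H2-Q5 were 0.63 to 0.96 higher. For the miR-142-/- Qa2- array, 1 free-text label names Qa2+ cells, and the title and sorting entry were followed instead. Xist lay at 12.14 and above in WT and at 5.06 and below in miR-142-/- cells, and Eif2s3y, Kdm5d and Uty lay below background in WT and between 9.72 and 10.58 in miR-142-/-, although both pools are labelled as holding both sexes. Genotype, pool and these sex-linked transcripts cannot be told apart in any genotype difference below. Of the markers that define CD4 T cells, all 6 measured were above background on every array, among them Cd4 at 12.36 to 12.64. Although the cells were sorted as CD8-, Cd8a read 7.25 to 7.53 and Cd8b1 8.75 to 9.98, above background on every array. Array medians were log2 6.61 to 6.74, correlations between arrays over all probe sets were 0.982 to 0.991, and precision is limited by there being 4 arrays.

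Other cell types that the sorts could hold left different traces. For 14 innate-like and natural killer markers, the mean log2 level was 7.88 and 6.97 in the WT and 6.23 and 6.34 in the miR-142-/- populations, with 14, 12, 10 and 9 of them above background. For 9 regulatory T cell markers, all above background on each array, it was 9.96 and 10.26 in the WT and 9.66 and 9.70 in the miR-142-/- populations, and their defining gene Foxp3 read 8.21 and 10.36 in the WT and 7.01 and 8.69 in the miR-142-/- populations. For 14 proliferation genes it was 9.43 and 9.85 in the WT and 7.80 and 8.09 in the miR-142-/- populations. For 10 double-positive thymocyte markers it was 7.65 and 8.40 in the WT and 7.87 and 8.42 in the miR-142-/- populations. For 7 CD8 single-positive markers it was 9.02 and 8.83 in the WT and 8.22 and 8.40 in the miR-142-/- populations. Of 6 B cell markers 1, Cd79b, was above background, as were 4 of 6 gamma-delta T cell, 5 of 10 myeloid and dendritic, 7 of 9 thymic stroma and 0 of 2 erythroid markers by their means. The part of these cells in the results below was not tested, and fewer cells of a type and less RNA per cell cannot be told apart in bulk RNA.

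All 41 genes were above background, with means over the arrays from log2 8.76 to 13.16. Their range over the 4 arrays had a median of 0.36, the same as the 0.36 of the 12581 genes above background, and ran from 0.062 for Cd3g to 1.16 for Sh2d2a. For 34 of the 41 genes the highest and lowest arrays were less than 1.5-fold apart, against 77.9% of all genes above background. Genotype gave the larger mean difference for 19 of the 41 genes (46.3%, against 48.8% of all genes above background) and stage for the others.

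**Figure D1:**
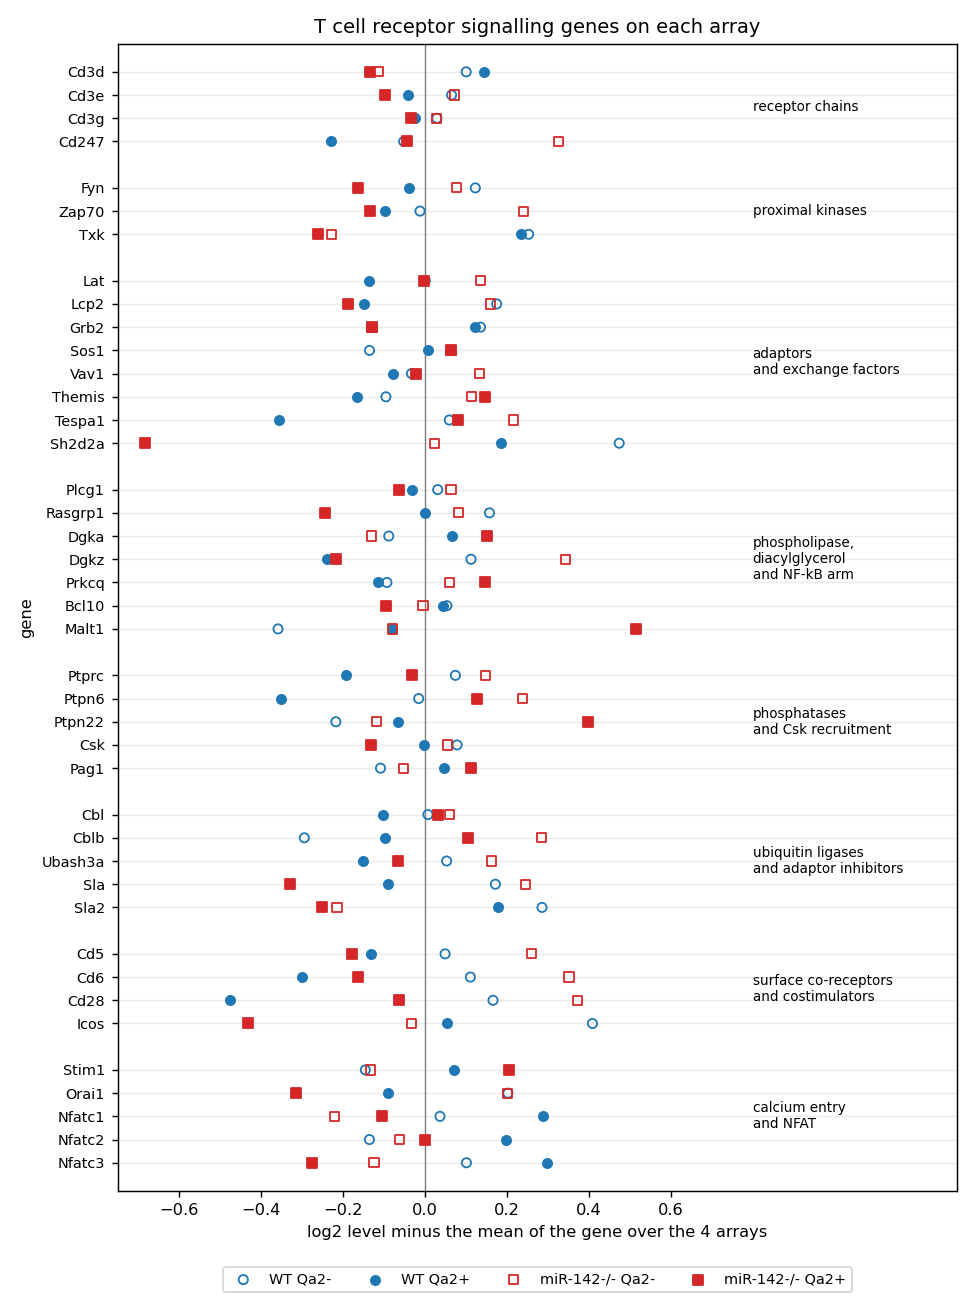
Log2 level of each of the 41 measured genes on each of the 4 arrays (x axis, centred on that gene's mean over the arrays), with genes ordered by signalling step on the y axis; circles are WT, squares miR-142-/-, open symbols Qa2- and filled symbols Qa2+ cells. Each symbol is 1 array, so there are no error bars. Cd3g spans 0.062 and Sh2d2a 1.16, and the 4 surface receptors each have their open symbol to the right of the filled symbol of the same genotype.

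Between the genotypes most of these genes were less than 0.32 apart in log2, a gap used here as a looser limit beside 1.5-fold. Cd3d, Cd3e, Cd3g, Fyn, Zap70, Lat and Lcp2 were within it in both populations, and the widest gaps were those of Sh2d2a, lower in miR-142-/- cells, and Malt1 and Cblb, higher. Taking 1.5-fold in Qa2- cells, 0 of the 41 genes were higher and 0 lower, against 3.1% and 3.74% of the 12581 genes above background, or 6.84% either way. In Qa2+ cells Malt1 was higher and Sh2d2a lower at 1.5-fold, 1 gene each way, against 4.55% of all genes higher and 4.88% lower, or 9.43% either way. By the looser limit 6 of the 41 genes were apart in Qa2- cells, against 19.2%, and 11 in Qa2+ cells, against 26.1%. Among the 5600 genes at least as bright as the dimmest of the 41, a comparison added after seeing the data, 4.73% and 7.16% were at least 1.5-fold apart in Qa2- and Qa2+ cells. These shares come from 1 array a group, so no test was made of any genotype difference.

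The median genotype difference of the 41 genes, miR-142-/- minus WT in log2, was 0.056 in Qa2- and -0.0078 in Qa2+ cells, beside -0.0012 and 0.00097 for all genes above background. Under quantile normalization the median in Qa2+ cells turned to 0.037, beside -0.032 for all genes above background. After median centring it was -0.069, beside -0.060. As deposited, the median size of the difference of the 41 genes without regard to sign was 0.16 and 0.19, beside 0.15 and 0.17 for all genes above background. For 34 of the 41 genes (82.9%) the sign was the same in both populations, against 70.7% of all genes above background. The differences in the 2 populations correlated across the 41 genes with a Pearson r of 0.80 and a Spearman rho of 0.80. This describes genes, which are not replicates, and the same pools of mice gave both populations.

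Among the receptor chains, the CD3 genes that carry the signal across the membrane were close to constant. Cd3g read 12.78 and 12.72 in the WT and 12.78 and 12.72 in the miR-142-/- populations, and Cd3e read 12.92 and 12.81 in the WT and 12.92 and 12.75 in the miR-142-/- populations. Cd3d was an exception in being lower by 0.21 and 0.28 in miR-142-/- cells, with all 4 arrays between 10.79 and 11.06 and both miR-142-/- arrays below both WT arrays. Cd247, the zeta chain with the most docking sites for Zap70, read 10.95 and 10.77 in the WT and 11.32 and 10.96 in the miR-142-/- populations, differences of 0.38 and 0.19.

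Of the 3 kinases measured that start the cascade, 2 read lower in miR-142-/- Qa2- cells and all 3 in Qa2+ cells, with medians of -0.046 and -0.12. Of the 12581 genes above background, 6326 and 6258 read lower. Txk, a Tec family kinase of T cells, read 11.39 and 11.37 in the WT and 10.91 and 10.87 in the miR-142-/- populations, 1.39-fold and 1.41-fold lower, with nearly the same level at both stages of a genotype. The Src family kinase Fyn was 0.046 and 0.12 lower on the log2 scale. Zap70 was 0.25 higher in Qa2- and 0.036 lower in Qa2+ cells.

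Among the adaptors and exchange factors, Sh2d2a stood at the edge. Sh2d2a, an adaptor that binds Lck and is induced in activated T cells, read 11.40 and 11.11 in the WT and 10.95 and 10.24 in the miR-142-/- populations, 1.37-fold and 1.83-fold lower. It had the widest range over the arrays of all 41 genes, and the miR-142-/- Qa2+ array was the lowest. The central scaffold Lat was 0.14 and 0.13 higher, and Lcp2 differed by -0.015 and -0.038. Grb2, which links the scaffolds to Sos1, was 0.26 and 0.25 lower in miR-142-/-, while Sos1 was 0.20 and 0.056 higher and the Rac exchange factor Vav1 0.17 and 0.056 higher. Themis and Tespa1 encode proteins needed for thymocytes to pass positive selection. Themis was 0.21 and 0.31 higher and Tespa1 0.16 and 0.44 higher.

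In the phospholipase, diacylglycerol and NF-kB arm, Malt1 was the gene furthest apart. Malt1, the protease of the complex with Bcl10 that links the receptor to NF-kB, read 10.07 and 10.35 in the WT and 10.35 and 10.94 in the miR-142-/- populations, 1.21-fold and 1.51-fold higher, and the miR-142-/- Qa2+ array was the highest. After median centring its difference in Qa2+ cells was 0.54, under 1.5-fold. Its partner Bcl10 was 0.058 and 0.14 lower. Plcg1 itself differed by 0.032 and -0.032, and Rasgrp1, which activates Ras from diacylglycerol, by -0.075 and -0.24. Prkcq, a protein kinase C of T cells, was 0.15 and 0.26 higher. Of the diacylglycerol kinases, which remove the messenger, Dgka differed by -0.043 and 0.086 and Dgkz by 0.23 and 0.023.

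Of the 5 phosphatases and recruiters of the inhibitory kinase Csk, 4 read higher in miR-142-/- than in WT cells in each population, with medians of 0.074 and 0.16. Of the 12581 genes above background, 6251 and 6315 read higher. Ptpn6 and Ptpn22 encode phosphatases that restrain proximal signalling. Ptpn6 was 0.25 and 0.48 higher and Ptpn22 0.099 and 0.46 higher. Ptpn22 read 10.99 and 11.14 in the WT and 11.09 and 11.61 in the miR-142-/- populations, so that the miR-142-/- Qa2+ array stood above the other 3. Ptprc, which encodes CD45, was 0.074 and 0.16 higher, Pag1, the membrane anchor of Csk, 0.056 and 0.066 higher, and Csk 0.024 and 0.13 lower.

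Among the ubiquitin ligases and adaptor inhibitors, Cblb and Sla2 differed in opposite directions. Cblb, a ligase that sets the need for costimulation, read 11.24 and 11.44 in the WT and 11.82 and 11.64 in the miR-142-/- populations, 1.49-fold and 1.15-fold higher, and the miR-142-/- Qa2- array was the highest. Its relative Cbl differed by 0.053 and 0.13. Sla2, an adaptor that brings Cbl to the receptor, read 10.75 and 10.64 in the WT and 10.25 and 10.21 in the miR-142-/- populations, 1.41-fold and 1.35-fold lower, whereas its relative Sla differed by 0.073 and -0.24. Ubash3a, a suppressor of receptor signalling that binds Cbl, was 0.11 and 0.087 higher.

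Of the surface receptors, Icos was lower and Cd28 higher in miR-142-/- cells. Icos, a costimulator of helper and regulatory T cells, read 11.71 and 11.36 in the WT and 11.27 and 10.87 in the miR-142-/- populations, 1.36-fold and 1.40-fold lower. The 9 regulatory T cell markers had median genotype differences of 0.079 and -0.54. Lower in both populations were Ctla4 (-2.61 and -2.65), Foxp3 (-1.19 and -1.66), Izumo1r (-0.45 and -0.66) and Ikzf4 (-0.30 and -0.54). Higher in both were Gpr83 (1.03 and 1.27) and Il2ra (0.33 and 0.26). Tnfrsf4 (0.11 and -0.82), Tnfrsf18 (0.30 and -0.14) and Ikzf2 (0.079 and -0.064) were higher in Qa2- and lower in Qa2+ cells. The part of regulatory T cells in the level of Icos was not tested. Cd28, the main costimulatory receptor, read 12.45 and 11.81 in the WT and 12.65 and 12.22 in the miR-142-/- populations, 0.21 and 0.41 higher. The inhibitory receptor Cd5 differed by 0.21 and -0.046, and Cd6 was 0.24 and 0.14 higher.

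In the calcium and NFAT arm, 4 of 5 genes read lower in miR-142-/- Qa2+ cells, with a median of -0.23 there and -0.0010 in Qa2- cells. In Qa2+ cells 6258 of the 12581 genes above background read lower. Nfatc3, an NFAT factor of thymocytes, read 11.48 and 11.67 in the WT and 11.25 and 11.10 in the miR-142-/- populations, 1.17-fold and 1.49-fold lower, with both miR-142-/- arrays below both WT arrays. Nfatc1 was 0.26 and 0.39 lower and Nfatc2 differed by 0.074 and -0.20. The calcium sensor gene Stim1 differed by 0.013 and 0.13 and the channel gene Orai1 by -0.0010 and -0.23.

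Txk, Sh2d2a, Sla2 and Icos were thus the 4 genes of the 41 that were at least 0.32 lower in log2 in both populations, against 6.5% of all genes above background, and 0 were higher by as much in both, against 5.84%. For each of the 4 genes both miR-142-/- arrays lay below both WT arrays. Under quantile normalization and under median centring these 4 genes also read lower in both populations, by 0.42 for Icos in Qa2- cells at the least. Since the 4 genes were picked by these same differences, this shows only that the scaling moved them little.

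**Figure D2:**
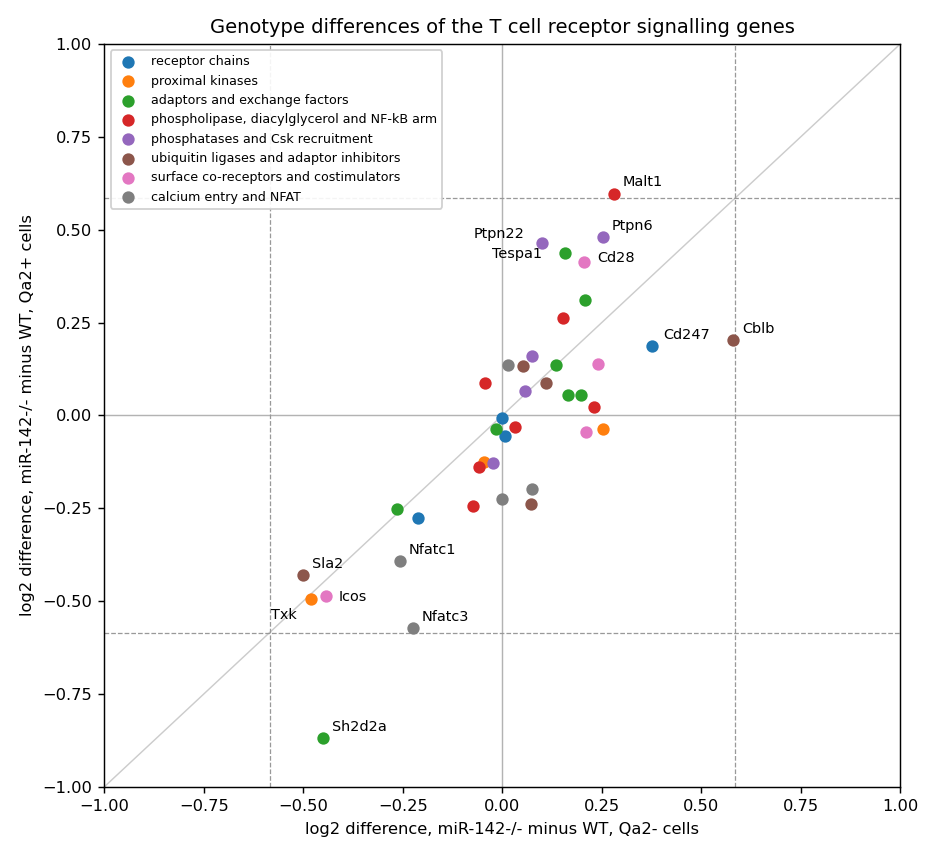
Log2 difference between miR-142-/- and WT in Qa2- cells (x axis) and in Qa2+ cells (y axis) for the 41 genes, coloured by signalling step; each point is a gene measured on 1 array per group, dashed lines mark 1.5-fold and the diagonal marks equal differences. No point lies past a vertical dashed line, Malt1 and Sh2d2a lie past the horizontal ones, and Txk, Sla2, Icos and Sh2d2a lie at lower left.

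With maturation stage, Cd28, Cd6 and Icos fell from Qa2- to Qa2+ cells, together with Dgkz, Orai1, Sla and Sh2d2a, while Malt1 rose. The receptor chains, the proximal kinases measured here and most adaptors did not pass the test. The test was limma on the stage difference over both genotypes, with genotype as a block and Benjamini-Hochberg adjustment over 12581 genes, and it called 1 of the 41 genes higher and 7 lower in Qa2+ cells, against 4.89% and 8.54% of all genes. The test rests on 2 pools and 1 residual degree of freedom, the gap between the stage differences of the WT and miR-142-/- pools. That gap also holds any difference in stage change between the genotypes. It was moderated by a prior over all genes of 7.11 degrees of freedom. The p-values therefore do not measure the spread between mice or between replicate pools. Without the genotype block, limma called 0 of the 41 genes and 0 of all genes, with 6 of the 41 and 1543 of all genes at an unadjusted p under 0.05. The calls of Sla, Icos and Orai1 were also lost after quantile normalization and after median centring.

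Within WT, Cd28 alone of the 41 genes was lower with stage by 1.5-fold or more, 1 gene against 3.7% of all genes, and 0 were higher, against 2.69%. Its difference of -0.64 was -0.58 after quantile normalization and -0.54 after median centring, both under 1.5-fold. In miR-142-/-, Malt1 was higher and Sh2d2a lower by that fold, against 2.65% and 3.64% of all genes. By the limit of 0.32 in log2, 8 of the 41 genes were apart in WT and 15 in miR-142-/-, against 23.2% and 23.4% of all genes. Lcp2, Dgkz, Cd6, Cd28 and Icos were lower by that much in both genotypes, 5 genes against 7.38% of all, and 0 were higher in both, against 4.24%. The median stage difference of the 41 genes was -0.085 in WT and -0.14 in miR-142-/-, beside -0.064 and -0.058 for all genes above background. Below 0 were 30 of the 41 genes in WT and 32 in miR-142-/-, while 7650 and 7536 of the 12581 genes were below 0. After median centring, which moved the median of all genes in WT from -0.064 to 0.038, the median of the 41 genes was 0.017 in WT and -0.071 in miR-142-/-, so its direction in WT turned. For 35 of the 41 genes (85.4%) the sign was the same in both genotypes, against 71.8% of all genes above background. The Pearson r was 0.75 and the Spearman rho 0.78 across the 41 genes, which are not replicates.

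The 4 surface receptors all read lower at the Qa2+ stage in both genotypes, with medians of -0.38 in WT and -0.44 in miR-142-/-, and this held under quantile normalization and median centring. Cd28 fell by 0.54 ± 0.10 on the log2 scale (limma estimate ± SE, 2 pairs, Benjamini-Hochberg adjusted p = 0.015). Its stage difference was -0.64 in WT and -0.44 in miR-142-/-. Cd6, an adhesion and inhibitory receptor, read 11.24 and 10.83 in the WT and 11.48 and 10.97 in the miR-142-/- populations and fell by 0.46 ± 0.10 (limma, adjusted p = 0.022). Icos fell by 0.38 ± 0.10 (limma, adjusted p = 0.043). Cd5, whose level follows the strength of receptor signalling, read 12.58 and 12.40 in the WT and 12.79 and 12.36 in the miR-142-/- populations, a limma estimate of -0.31 ± 0.11 that did not pass (adjusted p = 0.099). Cd5 did pass with an intensity trend and a robust prior (limma, adjusted p = 0.025).

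Of the signalling genes inside the cell, Sh2d2a fell by 0.50 ± 0.12 (limma, adjusted p = 0.035). The WT arrays were 0.29 apart and the miR-142-/- arrays 0.71. Dgkz read 10.62 and 10.27 in the WT and 10.85 and 10.29 in the miR-142-/- populations and fell by 0.46 ± 0.10 (limma, adjusted p = 0.027). Dgka, the other diacylglycerol kinase, read 13.08 and 13.23 in the WT and 13.03 and 13.32 in the miR-142-/- populations, higher in Qa2+ cells of both genotypes, with a limma estimate of 0.22 ± 0.10 that did not pass (adjusted p = 0.19). Dgka did pass with an intensity trend and a robust prior (limma, adjusted p = 0.043). The 2 probe sets of Dgkz both read lower in Qa2+ cells, by 0.12 in WT and 0.25 in miR-142-/- for the dimmer one, and Dgkz did not pass when they were averaged.

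Among the 41 genes, Malt1 was the 1 that passed the test as higher in Qa2+ cells in the values as deposited, by 0.44 ± 0.11 (limma, adjusted p = 0.041). The WT arrays were 0.28 apart and the miR-142-/- arrays 0.59. Its partner Bcl10 differed by -0.0093 and -0.090. Ptpn22 read higher in Qa2+ cells of both genotypes, by 0.15 and 0.52, with a limma estimate of 0.33 ± 0.12 (adjusted p = 0.10). Sla, which lowers receptor levels on thymocytes, read 11.80 and 11.54 in the WT and 11.88 and 11.30 in the miR-142-/- populations and fell by 0.42 ± 0.11 (limma, adjusted p = 0.046).

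In the calcium arm Orai1 passed the test and Stim1 did not as deposited, while after median centring Stim1 passed (limma, adjusted p = 0.042) and Orai1 did not (limma, adjusted p = 0.083). Over all alternatives the adjusted p ran from 0.042 to 0.416 for Stim1 and from 0.0277 to 0.358 for Orai1. Orai1 read 9.23 and 8.94 in the WT and 9.23 and 8.72 in the miR-142-/- populations and fell by 0.40 ± 0.11 (limma, adjusted p = 0.043). Stim1 read 9.29 and 9.51 in the WT and 9.30 and 9.64 in the miR-142-/- populations, with a limma estimate of 0.28 ± 0.10 that did not pass (adjusted p = 0.11). Nfatc1 and Nfatc2 read higher in Qa2+ cells, Nfatc1 by 0.25 in WT and 0.12 in miR-142-/- and Nfatc2 by 0.33 and 0.061, and Nfatc3 differed by 0.20 in WT and -0.15 in miR-142-/-.

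None of the receptor chains and proximal kinases passed the stage test. Cd3d, Cd3e and Cd3g had limma estimates of 0.011, -0.14 and -0.058, and Cd247 of -0.27 ± 0.10 (adjusted p = 0.12). Zap70 and Fyn were at -0.23 and -0.20 and Txk at -0.026. Cd247 and Zap70 were past the limit of 0.32 in miR-142-/-, at -0.37 each, but not in WT, at -0.18 and -0.085. Lcp2 was lower in Qa2+ cells by 0.32 in WT and 0.35 in miR-142-/-, a limma estimate of -0.34 ± 0.10 just short of the threshold (adjusted p = 0.060). Lcp2 did pass with the stricter background filter (limma, adjusted p = 0.045) and with an intensity trend and a robust prior (limma, adjusted p = 0.0092). As a measure of array scatter at low signal, the SD of the stage difference over the 1190 olfactory and vomeronasal receptor genes was 0.217 in WT and 0.210 in miR-142-/-.

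**Figure D3:**
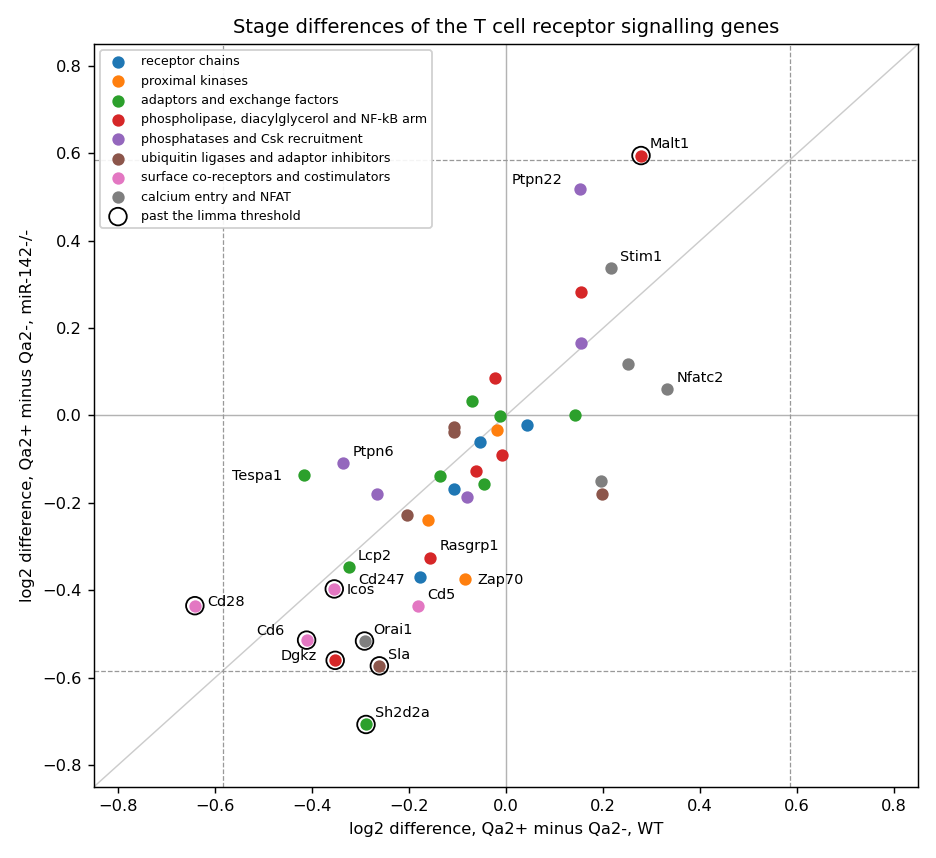
Log2 difference between Qa2+ and Qa2- cells in WT (x axis) and in miR-142-/- (y axis) for the 41 genes, coloured by signalling step, with dashed lines at 1.5-fold, a diagonal of equal differences and rings around the 8 genes past the limma threshold. Points are single-array differences without error bars. The 4 surface receptors lie at lower left, and Malt1 is the ringed gene at upper right.

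The stage difference was compared between genotypes by subtraction, with no test possible from 1 array a group. No gene of the 41 had stage differences that were 1.5-fold apart between the genotypes, against 3.4% of all genes above background. Among the 5600 genes at least as bright as the dimmest of the 41 the share was 1.5%, so few would be looked for among 41. By the looser limit 4 were at least 0.32 apart in log2, against 17.1% of all genes above background. Sh2d2a (-0.42), Cblb (-0.38) and Nfatc3 (-0.35) had a lower stage difference in miR-142-/- than in WT, and Ptpn22 (0.36) a higher one. Cblb and Nfatc3 read higher in Qa2+ than Qa2- cells of WT, by 0.20 each, and lower in miR-142-/-, by 0.18 and 0.15.

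Beyond the 41 genes, a list of 129 further genes of the same pathway (co-receptors, Ras, PI3-kinase and calcium signalling, inhibitory receptors and feedback genes) was examined, of which 118 were measured and 115 were above background. At 1.5-fold between the genotypes, miR-142-/- was higher for 5 (4.35%) and lower for 7 (6.09%) of the 115 in Qa2- cells, against 3.1% and 3.74% of all genes above background. In Qa2+ cells it was higher for 6 (5.22%) and lower for 8 (6.96%), against 4.55% and 4.88%. The medians were 0.0047 and -0.048. In both populations 4 (3.48%) were higher and 5 (4.35%) lower, against 2.14% and 2.75% of all genes above background. The list was chosen with earlier results of these data known. These shares, and those between the stages below, therefore describe the list and are no test of the pathway.

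The 4 genes higher in both populations were Skap2, Ppp3ca, Pik3ip1 and Nedd4. Skap2, an adaptor of integrin signalling, read 7.46 and 7.69 in the WT and 9.19 and 9.45 in the miR-142-/- populations, 3.34-fold and 3.38-fold higher. Ppp3ca, a catalytic subunit of calcineurin, the phosphatase that releases NFAT, read 9.36 and 9.48 in the WT and 10.64 and 10.54 in the miR-142-/- populations, 2.43-fold and 2.08-fold higher. Pik3ip1, a restraint on PI3-kinase, was 1.87-fold and 2.32-fold higher. Nedd4, a ubiquitin ligase, was 2.00-fold and 3.15-fold higher.

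The 5 genes lower in both populations were Ctla4, Rasa3, Tigit, Orai2 and Cd48. The inhibitory receptor Ctla4 read 8.69 and 9.29 in the WT and 6.07 and 6.64 in the miR-142-/- populations, 6.11-fold and 6.28-fold lower, and Tigit, another inhibitory receptor, was 1.68-fold and 2.19-fold lower. Both miR-142-/- values of Ctla4 lay between the background threshold of log2 5.87 and a stricter one of 6.75, so the size of its folds is uncertain. Orai2, a relative of the channel gene Orai1, read 10.37 and 10.73 in the WT and 9.71 and 9.78 in the miR-142-/- populations, 1.58-fold and 1.94-fold lower. Rasa3, which switches off Ras and Rap, was 2.07-fold and 1.65-fold lower, and Cd48, an adhesion protein, 1.57-fold and 1.69-fold lower. Ctla4 and Tigit are also genes of regulatory T cells, and Ctla4 is one of the 9 markers given beside Icos. Those markers had median genotype differences of 0.079 in Qa2- and -0.54 in Qa2+ cells, with single markers in both directions. The part of regulatory T cells in the levels of Ctla4 and Tigit was not tested.

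Between the stages, 6 of the 115 genes rose and 17 fell in Qa2+ cells by limma with Benjamini-Hochberg adjustment (5.22% and 14.8%), against 4.89% and 8.54% of all genes tested. The split was 11 and 16 after quantile normalization and 13 and 15 after median centring. Over all genes tested it was 979 higher and 766 lower of 12584 after quantile normalization. After median centring it was 1088 and 737 of 12581, so the split of all genes also turned with the scaling. At least 1.5-fold in both genotypes, Rasa3 was higher (0.87%) and Nedd4, Egr2 and Arhgef6 were lower (2.61%). Of all genes above background 1.29% were higher and 1.8% lower. Rasa3 read 10.67 and 11.60 in the WT and 9.62 and 10.88 in the miR-142-/- populations and rose by 1.10 ± 0.11 (limma, adjusted p = 0.0015). Nedd4 read 10.83 and 9.29 in the WT and 11.83 and 10.94 in the miR-142-/- populations and fell by 1.22 ± 0.15 (limma, adjusted p = 0.0028). Egr2, a transcription factor induced by receptor signals, read 10.60 and 9.72 in the WT and 10.57 and 9.48 in the miR-142-/- populations and fell by 0.99 ± 0.11 (limma, adjusted p = 0.0016). Arhgef6, a Rac exchange factor, fell by 0.70 ± 0.10 (limma, adjusted p = 0.0045).

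**Figure D4:**
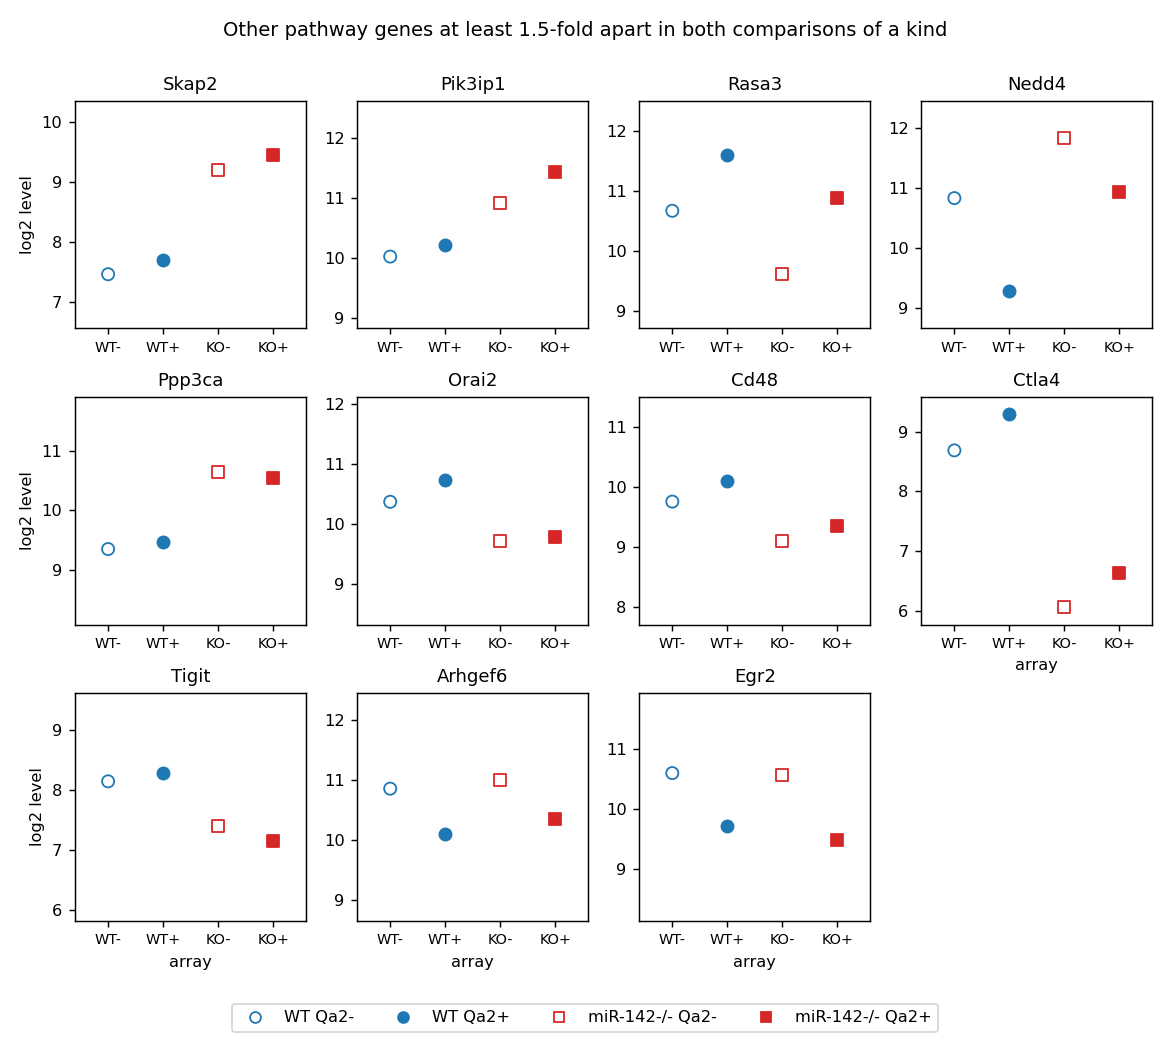
Log2 level on each of the 4 arrays (x axis, WT and KO for miR-142-/-, with - for Qa2- and + for Qa2+ cells) of the 11 further pathway genes that were at least 1.5-fold apart in both populations or in both genotypes. Each panel spans the same log2 distance, and each symbol is 1 array. Ctla4 is lowest on both miR-142-/- arrays, Skap2 highest on both, and Egr2 is lower on the Qa2+ than on the Qa2- array of each genotype.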

How the data were processed

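RNA of 4 sorted CD4+ thymocyte populations, 1 pool of mice per genotype, was measured on 1 array each. Each probe set has a log2 value that the authors made with RMA and Partek, per the submitters' processing notes; the versions are not given in the sources used here. The RMA method subtracts background, equalises array distributions and summarises probes, which compresses differences of dim genes.

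From the deposited table of 35557 probe sets, 21789 had 1 gene in the platform annotation, 1621 several and 12147 none, and only the first kind was used. Symbols were updated by Entrez ID to GRCm38.p6 (21698 matched). A gene took its probe set with the highest mean. The background threshold, log2 5.87, was the 95th percentile over 1190 genes of olfactory and vomeronasal receptors, and 12581 genes had a mean above it. Cross-hybridisation is possible between relatives such as Cd28 and Icos or the Nfat genes.

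Genotype differences are miR-142-/- minus WT and stage differences Qa2+ minus Qa2-, and with 1 array a group genes at least 1.5-fold apart were counted without a test. Stage was tested over both genotypes with limma (3.58.1, in R 4.3.3; genotype as a block, prior 7.11 degrees of freedom, two-sided, adjusted threshold 0.05). In simulated data for this comparison, with 12581 genes fitted, limma called 99 of 100 genes changed 2-fold, 100 of 100 changed 4-fold and 14 of 12381 unchanged genes. The noise was drawn from the fitted prior, and no stage difference varied with genotype. No change under 2-fold was simulated, while the largest stage estimate among the 41 genes was 1.45-fold, for Cd28. The simulation thus gives no rate of detection for differences of that size. Any of the 41 genes was open to naming, and further pathway genes were named where at least 1.5-fold apart in both populations or both genotypes, at most 6 in each direction. The genes, the lists and the promoter motifs were chosen with earlier results of these data known. Alternatives were other scalings, filters, probe set choices, fold thresholds and limma settings.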

Additional observations from a re-analysis of the deposited data

How the results depend on the processing

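No paired analysis by replicate number was possible because the labels give no replicate numbers; the genotype, which is also the pool, served as the block. With 1 array a group, only 2 pools and RMA values without scanner files, small differences of these genes cannot be told from array scatter, and adjusted p-values of the 8 limma calls, 0.015 to 0.046, lay near the threshold. Limma called 1 of the 41 genes higher and 7 lower in Qa2+ cells as deposited. After quantile normalization it called 1 and 4 (5 in all, each of them also called as deposited), and after median centring 3 and 4. Without the genotype block it called 0 and 0 (0 in all), and with an intensity trend and a robust prior 2 and 11 (13 in all). Of all 12581 genes, 615 were called higher and 1075 lower as deposited. The counts were 979 and 766 of 12584 genes after quantile normalization and 1088 and 737 of 12581 after median centring. They were 0 and 0 without the genotype block and 661 and 1225 with the trend and robust prior, both of 12581. Sla, Icos and Orai1 did not pass after quantile normalization or after median centring, and Ptpn22 and Stim1 passed only after median centring, among these settings. The genes added by the trend and robust prior were Cd5, Dgka, Lcp2, Ptprc and Rasgrp1. Over all genes, 36.4% of limma calls were higher in Qa2+ cells as deposited, 56.1% after quantile normalization and 59.6% after median centring, so that split moves with the scaling. For the 115 further pathway genes the split was 6 higher and 17 lower as deposited, 11 and 16 after quantile normalization and 13 and 15 after median centring. The cause of these shifts beyond the scaling itself was not tested.

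Limma estimates that were not called and turned from below to above 0 were those of Cd3g (0.017 after quantile normalization and 0.027 after median centring), Txk (0.011 and 0.059), Grb2 (0.054 and 0.077), Themis (0.032 and 0.066) and Bcl10 (0.0016 and 0.035) and, after median centring alone, Cbl (0.017) and Sla2 (0.013). At 1.5-fold, quantile normalization added Cblb as 1 gene higher in miR-142-/- Qa2- cells and left 0 genes lower with stage in WT. Median centring left 0 higher and 2 lower in miR-142-/- Qa2+ cells, Sh2d2a and Nfatc3, and 0 lower with stage in WT. At 2-fold, 0 genes were apart in the 4 comparisons of single genotypes or populations. Leaving out the background filter, or using the 99th percentile, moved no count of the 41 genes by over 1.5 times.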

Other observations

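Related genes of the pathway were set side by side, pairs chosen with the values known, and their probes can cross-hybridise. Several relatives read in opposite directions with stage, in both genotypes. Ubash3b was higher in Qa2+ than in Qa2- cells by 0.60 in WT and 0.46 in miR-142-/-, while Ubash3a was lower by 0.20 and 0.23. Stim2, a second calcium sensor, was lower by 0.29 and 0.31, while Stim1 was higher by 0.22 and 0.34. Orai2 was higher by 0.36 and 0.069, while Orai1 was lower by 0.29 and 0.52. Ptpn12 was lower by 0.61 and 0.57, while Ptpn22, a phosphatase of the same family, was higher by 0.15 and 0.52. Other pairs read in the same direction with stage in both genotypes. Cd5 and Cd6, Cd28 and Icos, and Sla and Sla2 were lower in Qa2+ cells, and Nfatc1 and Nfatc2 were higher.

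Between the genotypes, Tec was lower in miR-142-/- cells by 0.60 in Qa2- and 0.27 in Qa2+ cells, in the same direction as its relative Txk. Cd28 and Icos, neighbouring costimulator genes, differed in opposite directions in both populations. Sos1 and Sos2 were both higher in miR-142-/- cells, Sos1 by 0.20 and 0.056 and Sos2 by 0.037 and 0.17 (Qa2-, then Qa2+). None of these pairwise differences was tested.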
